A study of Homo sapiens with 8 samples.

Results

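The receptors described here are ALK, RET, NTRK2, NTRK3, NGFR, GFRA1, GFRA2, GFRA3 and ERBB3, 9 genes taken by symbol from the 58787 gene identifiers of the count table. Their messenger RNA was counted in IMR32, an established human neuroblastoma cell line with amplified MYCN, labelled as wild type. Cells were left to attach for 48 h and then received, in fresh medium, either CR31B at its IC50 (4 libraries) or the vehicle, 0.1% DMSO (4 libraries), and RNA was taken at 6 h. CR31B is a rocaglate, a class of compounds that clamp the RNA helicase eIF4A onto RNA and so block the start of translation of many mRNAs. The concentration behind the IC50 is not given in the sources used here. All libraries come from 1 cell line. The series describes its 4 replicates as biological, without saying what separates one from the next.

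These receptors read growth and survival signals in the sympathetic lineage from which neuroblastoma arises. ALK is a receptor tyrosine kinase and an oncogene of neuroblastoma, switched on by the ALKAL ligands. RET is the kinase of the GDNF family and is engaged through co-receptors held on the membrane by a lipid anchor: GFRA1 prefers GDNF, GFRA2 prefers neurturin and GFRA3 prefers artemin. NTRK2 (TrkB) and NTRK3 (TrkC) are the neurotrophin kinases for BDNF and neurotrophin 3. NGFR (p75) binds all neurotrophins without a kinase of its own. ERBB3 is a neuregulin receptor with little kinase activity that works by pairing with ERBB2 and is typical of Schwann cells.

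Replicate 1 of each group was sequenced paired-end and replicates 2 to 4 single-end. Total counts ranged from 43687828 to 64715535 per library. As labelled, 0 of 16518 tested genes passed an adjusted p of 0.05 in all 8 libraries (edgeR, Benjamini-Hochberg), with 205 at an unadjusted p under 0.05, and DESeq2 and limma voom also called 0. Within the 6 single-end libraries 6901 of 16696 genes passed, 3968 higher and 2933 lower (3010 higher and 4509 lower with upper quartile scaling, 3181 and 4194 with total counts). Of those 6901 genes, 98.9% had the opposite sign in replicate 1. The difference of replicate 1 is therefore given apart from pairs 2 to 4 for each receptor, and directions follow the labels of the single-end libraries.

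All 10 listed markers of adrenergic neuroblasts could be tested in the single-end libraries, among them HAND2 with a mean of 997 CPM (counts scaled to library size). With CR31B 4 were higher and 4 lower there, with a median log2 fold change of -0.028. Their summed level, in which abundant genes weigh most, was 3770 to 4030 CPM against 2840 to 2940 CPM with DMSO. Of 8 Schwann cell markers, SOX10, CDH19 and MIA had no counts in any library. The summed level of these 8 markers was 3.8 to 4.43 CPM in the single-end CR31B libraries and 6.49 to 8.63 CPM in the single-end DMSO libraries. Only 1 of the 8 could be tested, and it was lower, with a log2 fold change of -0.96. ERBB3, also on this list, had more counts with CR31B (26 against 15 over all libraries). The sums therefore do not describe the 8 markers as a group. Summed mesenchymal and fibroblast markers (8 genes, PRRX1 at 0) were 224 to 262 CPM with CR31B and 200 to 204 CPM with DMSO in the single-end libraries. Of the 6 that could be tested, 1 was higher, PDGFRA (mean 66.4 against 29.4 CPM), and 5 did not pass. Their median log2 fold change was -0.128, opposite in sign to the difference of the sums. Blood markers (4 genes, CD3E and HBB at 0) were under 1 CPM in every library. The part of these cell type markers in the results was not tested.

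To show where the transcribed receptors start, the 250 bases before the RefSeq start site (GRCh38.p14) are given for the 3 receptor kinases that were well detected. Capitals mark the GC box GGGCGG, searched on both strands and present in 42.6% of 35116 windows of the same kind.
ALK, chr2:29921587-29921836, minus strand: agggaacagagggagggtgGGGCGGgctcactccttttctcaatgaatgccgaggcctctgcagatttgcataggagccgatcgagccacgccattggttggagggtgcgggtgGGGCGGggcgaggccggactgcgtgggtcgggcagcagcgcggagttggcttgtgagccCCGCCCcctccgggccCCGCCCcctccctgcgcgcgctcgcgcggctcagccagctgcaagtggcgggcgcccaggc
RET, chr10:43076819-43077068, plus strand: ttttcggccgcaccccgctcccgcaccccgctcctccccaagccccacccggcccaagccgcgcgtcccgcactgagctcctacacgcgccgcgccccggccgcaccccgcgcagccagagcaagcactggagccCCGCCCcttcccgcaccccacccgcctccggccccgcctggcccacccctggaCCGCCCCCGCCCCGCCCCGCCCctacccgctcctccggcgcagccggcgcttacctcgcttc
NTRK3, chr15:88256740-88256989, minus strand: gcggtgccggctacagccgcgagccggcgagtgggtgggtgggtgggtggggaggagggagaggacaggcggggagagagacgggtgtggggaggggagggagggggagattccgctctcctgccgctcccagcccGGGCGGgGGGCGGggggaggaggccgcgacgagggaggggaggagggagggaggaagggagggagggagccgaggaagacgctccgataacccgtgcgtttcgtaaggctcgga

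The 3 windows held 4, 5 and 2 GC boxes for ALK, RET and NTRK3, on either strand. Their GC content was 71.6%, 79.6% and 73.2%, against a median of 58% over all windows. None of the 3 held the E-box CACGTG (6.34% of windows), the cAMP response element TGACGTCA (1.65%) or the ETS core CCGGAAG (8.52%). Of the 9 genes, 6 had an entry in the table, and 4 had one within 100 bases of the gene's start in GENCODE release 29.

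Levels of different genes were compared per length, as TPM (counts scaled by length and library size) over the union of each gene's exons. GFRA2 (ENSG00000168546, chromosome 8, 21690403 to 21812357, minus strand) had the highest level, 451 ± 123 TPM (SD over 8 libraries). ALK (ENSG00000171094, chromosome 2, 29192774 to 29921566, minus strand) followed with 61 ± 9.4 TPM, and GFRA1 (ENSG00000151892, chromosome 10, 116056925 to 116273467, minus strand) with 36.2 ± 7.32 TPM. In each of these steps the lowest library of one gene lay above the highest library of the next.

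Among the receptors of middle level, NGFR (ENSG00000064300, chromosome 17, 49495293 to 49515017, plus strand) had 12.5 ± 2.88 TPM (SD, 8 libraries). RET (ENSG00000165731, chromosome 10, 43077027 to 43130351, plus strand) had 7.85 ± 2.62 TPM. NTRK3 (ENSG00000140538, chromosome 15, 87859751 to 88256768, minus strand) had 3.68 ± 1.6 TPM. The ranges of NGFR and RET over libraries overlapped, as did those of RET and NTRK3. Within single libraries on this scale RET was above NTRK3 in each. NGFR was above RET in each but CR31B replicate 3 (12.3 against 13 TPM). The lowest NGFR library (9.66 TPM) lay above the highest NTRK3 library (7.11 TPM). The exon union of NTRK3 is 26750 bases, and with the median length of its protein-coding transcripts instead (2727.5 bases) its level was 11.6 ± 4.97 TPM (SD, 8 libraries), overlapping with both GFRA1 and NGFR. On that scale GFRA2 had 617, ALK 40.2 and GFRA1 19.2 TPM, so GFRA2 and ALK kept the first places. NGFR had 9.08 and RET 7.06 TPM there, so the mean of NTRK3 lay above both. The order of NTRK3 against RET and NGFR therefore depended on the length used. GFRA3 (0.114 TPM) and ERBB3 (0.135 TPM), described next, overlapped on it.

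The other 3 receptors were near the limit of detection. GFRA3 (ENSG00000146013, chromosome 5, 138252379 to 138274671, minus strand) had 6 to 10 counts per library. ERBB3 (ENSG00000065361, chromosome 12, 56076799 to 56103505, plus strand) had 3 to 8. NTRK2 (ENSG00000148053, chromosome 9, 84668551 to 85027070, plus strand) had 1 count in DMSO replicate 4 and 0 in the other 7 libraries. The summed NTRK2 count of 0 in the CR31B libraries allows up to 0.014 CPM (3 counts over the group). None of the 3 passed the filter on low counts, and no test was made.

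For GFRA3 the counts summed to 33 in each group, with an exact 95% Poisson interval of 22.7 to 46.3 that covers counting error only. For ERBB3 they summed to 26 with CR31B (17 to 38.1) and 15 with DMSO (8.4 to 24.7), and these intervals overlap. ERBB3 was higher in the library labelled CR31B in all 4 pairs, at 8 against 4, 8 against 5, 4 against 3 and 6 against 3 counts for pairs 1 to 4. No test of this difference was made at these counts.

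**Figure D1:**
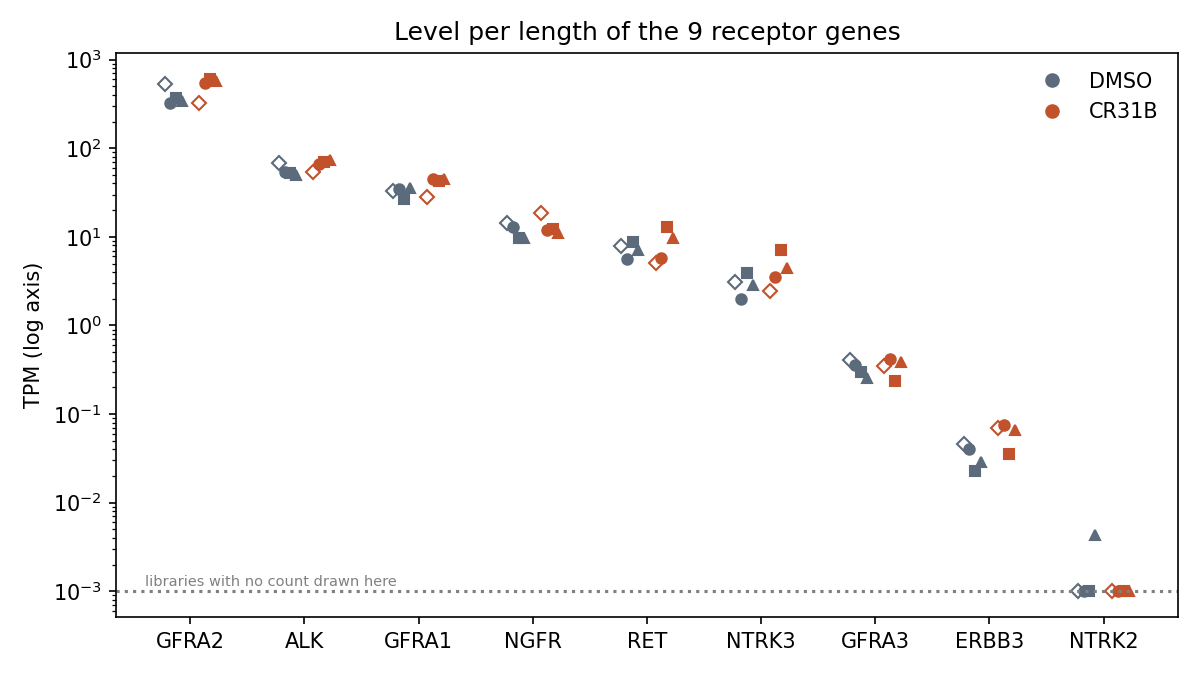
Level of the 9 receptor genes in TPM (log axis) in each library, DMSO in grey and CR31B in orange, with open diamonds for the paired-end replicate 1 and circles, squares and triangles for replicates 2, 3 and 4. GFRA2 lies at 320 TPM or more in every library and ERBB3 under 0.1 TPM; the dotted line holds libraries without a count.

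Of the 6 receptors that passed the filter, ALK, GFRA1, GFRA2 and NTRK3 rose with CR31B in the 6 single-end libraries, and 0 fell. RET and NGFR did not pass, and RET did with the replicate number as a block. Over all tested genes 41.3% passed, 23.8% higher and 17.6% lower (edgeR, Benjamini-Hochberg, adjusted p under 0.05), and with the replicate block 51.1%, of which 28.1% of tested genes higher and 23.1% lower. ALK, GFRA1 and GFRA2 had every single-end CR31B library above every single-end DMSO library, a pattern that 27% of tested genes shared, while 25.3% had the opposite one and 52.3% either. With all 8 libraries as labelled 0 of the 6 passed, against a background of 0%, with log2 fold changes from 0.14 (RET, adjusted p 0.843) to 0.52 (NTRK3, adjusted p 0.707), and 0 of them had an unadjusted p under 0.05. Over all 8 libraries the groups overlapped for each of the 6, while 0.733% of tested genes did not overlap (0.254% higher, 0.478% lower). In bulk RNA a change in the share of cells that carry a transcript and a change in its amount per cell cannot be told apart.

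GFRA2, the co-receptor for neurturin, was the most abundant of the receptors. It measured 698, 748 and 737 CPM in CR31B replicates 2, 3 and 4 and 409, 466 and 433 CPM in DMSO replicates 2, 3 and 4. Each CR31B library of these was above each DMSO library. The log2 fold change was 0.75 ± 0.060 (SE), or 1.68-fold, and edgeR put the Benjamini-Hochberg adjusted p at 7.01e-06. The log2 differences of the pairs were 0.77, 0.68 and 0.77. In replicate 1 the order was opposite, 418 CPM for the library labelled CR31B and 692 CPM for the library labelled DMSO.

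GFRA1, the co-receptor for GDNF, had 98.2, 87.8 and 98.9 CPM in CR31B replicates 2, 3 and 4. The DMSO libraries of the same numbers had 74.2, 56.8 and 76.3 CPM, so the groups did not overlap. Its log2 fold change was 0.47 ± 0.10 (SE), 1.39-fold, and edgeR put the Benjamini-Hochberg adjusted p at 0.00417. Replicate 3 was the lowest in both groups. In replicate 1 GFRA1 had 60 CPM in the library labelled CR31B and 72.5 CPM in the library labelled DMSO.

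RET, the kinase that both co-receptors serve, was low and varied between replicate numbers. It had 9, 19.2 and 15 CPM in CR31B replicates 2, 3 and 4, and 8.67, 13.2 and 11 CPM in DMSO replicates 2, 3 and 4. The groups overlapped, because CR31B replicate 2 was lower than DMSO replicates 3 and 4. The log2 fold change was 0.41 ± 0.24 (SE; adjusted p 0.197), and its 95% interval ran from -0.12 to 0.93 (edgeR, Benjamini-Hochberg). Blocking on the replicate number gave 0.38 ± 0.093 (adjusted p 0.0067, edgeR). Pair 2 differed by only 0.054 on the log2 scale, against 0.54 and 0.45 in pairs 3 and 4. Without CR31B replicate 3 the RET value was 0.14 (adjusted p 0.639), and without CR31B replicate 2 it was 0.66 (adjusted p 0.00834, edgeR). In replicate 1 RET had 7.72 CPM in the library labelled CR31B and 12.5 CPM in the library labelled DMSO.

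ALK had 111, 109 and 122 CPM in CR31B replicates 2, 3 and 4. DMSO replicates 2, 3 and 4 had 88.9, 84.2 and 82 CPM. All 3 CR31B libraries were above all 3 DMSO libraries, and the log2 fold change was 0.44 ± 0.059 (SE), 1.35-fold, and edgeR put the Benjamini-Hochberg adjusted p at 0.000234. The largest difference was in pair 4, at 0.58 on the log2 scale, and the smallest in pair 2, at 0.31. Replicate 1 read 89 CPM under the CR31B label and 115 CPM under the DMSO label.

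NTRK3, the receptor for neurotrophin 3, had the largest fold change of the 6 in this fit. It had 21.3, 40.8 and 27.1 CPM in CR31B replicates 2, 3 and 4, and 11.8, 22.8 and 17.2 CPM in DMSO replicates 2, 3 and 4. The groups overlapped, since DMSO replicate 3 was above CR31B replicate 2, yet within each of these pairs CR31B was higher, by 0.85, 0.84 and 0.65 on the log2 scale. The log2 fold change was 0.80 ± 0.25 (SE), 1.74-fold, and edgeR put the Benjamini-Hochberg adjusted p at 0.0265. With the replicate block the SE was 0.060 and the adjusted p 2.92e-06 for a log2 fold change of 0.80 (edgeR). Without CR31B replicate 3 it was 0.50 (adjusted p 0.0833), and the NTRK3 call was also lost without DMSO replicate 2 (0.0811), without DMSO replicate 4 (0.0631), without both libraries of replicate 4 (0.107), with upper quartile scaling (0.0504), with GC and length offsets (0.106) and in DESeq2 (0.0809). The fits that lost the NTRK3 call were all without the replicate block. The block was not combined with left-out libraries, upper quartile scaling or DESeq2, so whether it keeps the call there was not tested. With GC and length offsets it did (edgeR adjusted p 5e-05). In replicate 1 NTRK3 had 14.7 CPM in the library labelled CR31B and 18.9 CPM in the library labelled DMSO.

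NGFR, the p75 receptor, was the 1 of the 6 whose pairs 2 to 4 differed in sign, at -0.11, 0.31 and 0.22 on the log2 scale. It had 11, 11 and 10.4 CPM in CR31B replicates 2, 3 and 4 and 11.9, 8.82 and 8.96 CPM in DMSO replicates 2, 3 and 4, and the groups overlapped. Its log2 fold change was 0.14 ± 0.12 (SE; adjusted p 0.39), with a 95% interval from -0.13 to 0.40 (edgeR, Benjamini-Hochberg). Without DMSO replicate 2 the NGFR value was 0.29 (adjusted p 0.0383, edgeR), and with both libraries of replicate 2 left out 0.28 with 0.0677. The highest NGFR level of all, 17.1 CPM, was in the library labelled CR31B replicate 1, against 13.7 CPM in DMSO replicate 1. Exons of other genes on the opposite strand cover 27.1% of the exonic bases of NGFR. The genes that hold them, AC006487.1 and AC015656.1, had 0 to 0.0481 CPM, and the name of the deposited table holds the word reverse, without any further statement on strand.

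**Figure D2:**
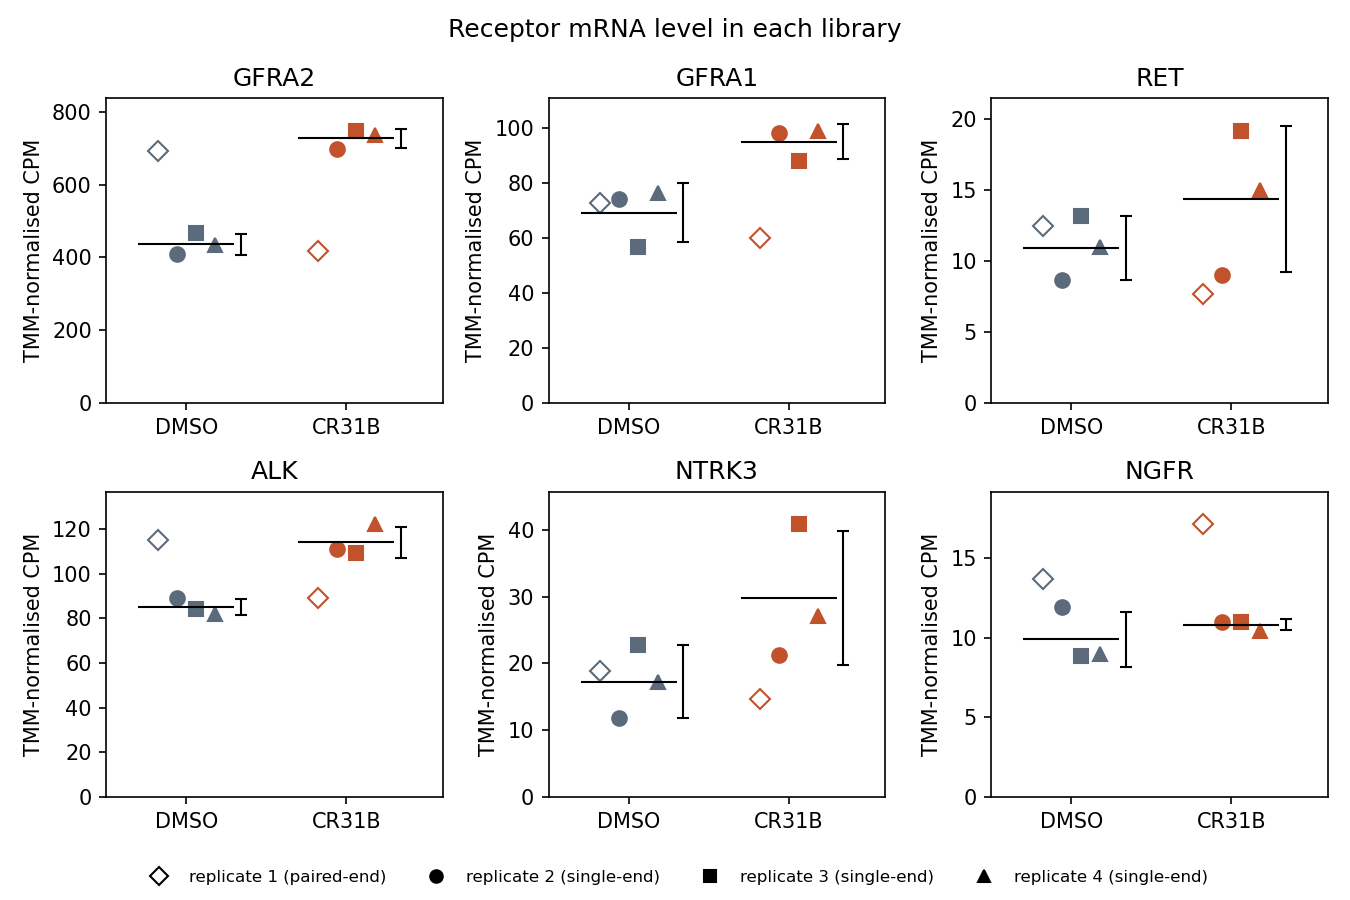
TMM-normalised CPM of the 6 tested receptors in each of the 8 libraries, with axes from 0; bars give the mean and SD of replicates 2 to 4. GFRA2, GFRA1 and ALK separate the single-end groups, and the open diamonds of replicate 1 lie in the opposite order for each gene but NGFR.

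The difference between replicate 1 and the other pairs, already seen in the signs above, was put into a fit as an interaction of treatment with sequencing layout. This passed in 42.5% of 16518 genes (24.1% negative, 18.4% positive), and in 3 of the 6 receptors, with the spread taken from the single-end libraries alone. Replicate 1 has 1 library per group, its own spread is not measured, and it is assumed to vary like the others. The interaction on the log2 scale was -1.47 ± 0.12 (SE) for GFRA2, and edgeR put the Benjamini-Hochberg adjusted p at 8.47e-06. For ALK the interaction was -0.80 ± 0.12 (adjusted p 0.000429), and for GFRA1 -0.73 ± 0.21 with 0.0168 (edgeR). RET (-1.09, adjusted p 0.0971) and NTRK3 (-1.14, adjusted p 0.0981) did not pass without a replicate block and did with one, at 0.00121 and 3.96e-05 (edgeR). NGFR had 0.19 (adjusted p 0.546). The differences of replicate 1 were -0.73 for GFRA2, -0.27 for GFRA1, -0.70 for RET, -0.37 for ALK, -0.36 for NTRK3 and 0.31 for NGFR on the log2 scale. Thus 5 of the 6 had the opposite sign in replicate 1, beside 83.8% of all tested genes. Layout and replicate 1 are the same libraries and cannot be told apart. Whether the labels of the 2 replicate 1 libraries were exchanged was not tested, and that doubt applies to each replicate 1 difference, to the interaction and to the 8-library result.

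**Figure D3:**
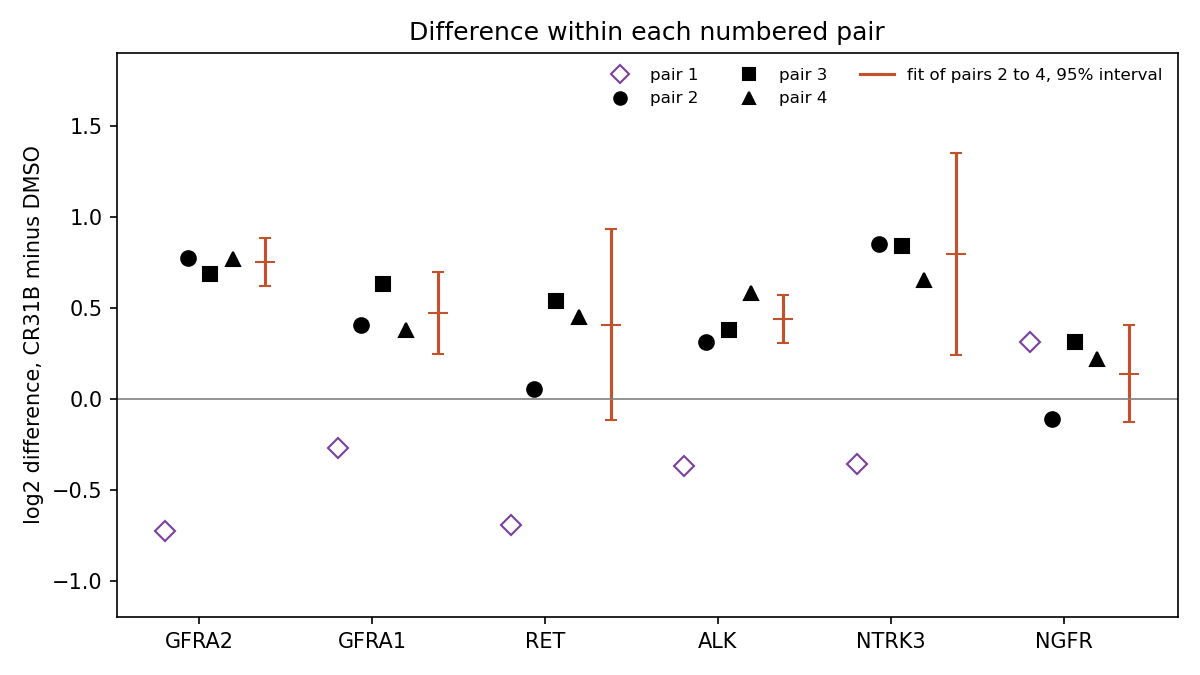
Log2 difference between the libraries labelled CR31B and DMSO within each numbered pair (open purple diamonds for pair 1, black symbols for pairs 2 to 4) and, in orange, the fitted log2 fold change of pairs 2 to 4 with its 95% interval. Pair 1 lies below 0 for each gene but NGFR; pair 2 of RET (0.054) and of NGFR (-0.11) are the single-end values nearest to or below 0.

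RET and NTRK3 were seen to vary with the replicate number. A comparison of the 3 single-end replicate numbers across both treatments, added after their values were seen and so no independent support, passed in 2.28% of tested genes and in these 2 of the 6 receptors. The mean of the CR31B and DMSO libraries was 8.84, 16.2 and 13 CPM for RET in replicates 2, 3 and 4, and edgeR put the Benjamini-Hochberg adjusted p at 0.0133. For NTRK3 it was 16.6, 31.8 and 22.1 CPM (adjusted p 0.00101, edgeR). Both were lowest in replicate 2 and highest in replicate 3. GFRA1, GFRA2, NGFR and ALK did not pass (adjusted p 0.0658, 0.183, 0.299 and 0.721, edgeR).

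Over the 8 libraries the log2 CPM of RET and NTRK3 had a Pearson r of 0.88, and ALK and GFRA2 of 0.94. NGFR had an r of -0.47 with RET and -0.365 with NTRK3. These values describe 8 libraries that share 2 treatments and 4 replicate numbers. Among 10296 protein-coding genes of at least 5 CPM, those most like GFRA2 were GAB1, RAB23 and ZNF287 (r of 0.998, 0.998 and 0.997). For ALK they were NOTCH1, RSPRY1 and CDK7 (0.991, 0.990 and 0.990), and for GFRA1 PITPNM3, SIAH1 and CDH23 (0.964, 0.963 and 0.960). RET was most like EFNB3, CPEB2 and TCEAL5 (0.968, 0.964 and 0.962), NTRK3 most like SCN3B, DKK1 and MAGI3 (0.992, 0.979 and 0.973), and NGFR most like ANK3, TMEM59 and ZNF700 (0.991, 0.950 and 0.947).

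The ligands of these receptors were measured in the same cells. Of the ALK ligands, ALKAL1 had no counts, and ALKAL2, at under 1 CPM, did not pass. Midkine (MDK) and pleiotrophin (PTN), secreted growth factors also linked to ALK, fell in the single-end libraries. MDK had 700 ± 27.8 CPM with CR31B and 893 ± 43.3 CPM with DMSO (SD, n = 3), a log2 fold change of -0.34 ± 0.056, and edgeR put the Benjamini-Hochberg adjusted p at 0.000826. PTN had 25.8 ± 0.646 and 29.7 ± 0.959 CPM (SD, n = 3), with a log2 fold change of -0.19 (adjusted p 0.0225, edgeR). The PTN call was lost without CR31B replicate 3, without DMSO replicate 2 or 3, and without either replicate 2, 3 or 4 as a pair (adjusted p 0.0506 to 0.105).

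Among the ligands that act through RET persephin (PSPN) was above 1 CPM, with a log2 fold change of 0.23 (adjusted p 0.183), and GDNF, NRTN, ARTN and GDF15 were below 1 CPM. GDF15, which signals through GFRAL and RET, is not a GDNF family member but is counted in that list and its plot. BDNF, the ligand of the nearly absent NTRK2, rose from 11.4 ± 0.54 to 22.5 ± 1.65 CPM (SD, n = 3). Its log2 fold change was 0.99 ± 0.081, and edgeR put the Benjamini-Hochberg adjusted p at 8.22e-06. In replicate 1 the BDNF difference was -0.83. NTF3 and NTF4 had no counts. NRG1, a neuregulin, rose from 10.8 ± 3.03 to 17.9 ± 4.1 CPM (SD, n = 3), and the edgeR adjusted p of 0.0125 was over the threshold without replicate 3 (0.109) or without replicate 4 (0.0538). NRG3 had a log2 fold change of -0.12 (adjusted p 0.679), NRG2 was under 1 CPM and NRG4 had no counts.

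Across the 8 lists of relatives, ligands and signal relays, 108 of 124 genes could be tested in the single-end libraries. Of these 52 were higher and 12 lower, or 48.1% and 11.1%, beside 23.8% and 17.6% of all tested genes. The list counts were 59 and 18 with the replicate block and 41 and 20 with upper quartile scaling. They were 42 and 18 with total counts and 41 and 14 with GC and length offsets. Over all tested genes the number called higher moved too, from 3968 to 4686, 3010, 3181 and 3383 in the same order. All 64 list genes called in the main fit had the opposite sign in replicate 1. Of 45 tested adaptors and relays 23 rose and 5 fell, with a median log2 fold change of 0.27 beside -0.0070 over all tested genes. IRS1, PIK3R1 and GRB10, which link receptors to the phosphoinositide 3-kinase pathway or hold them back, had 1.28, 1.49 and 1.21. FRS3, SHC1 and PLCG1, which dock on Trk receptors or their relatives, had -0.585, -0.335 and -0.369, and the PLCG1 call was lost without replicate 4 (edgeR adjusted p 0.0744).

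Of 21 tested genes that are targets or feedback inhibitors of the ERK pathway downstream of these receptors, 14 rose and 1 fell, with a median of 0.71. DUSP6, a phosphatase of ERK, had a log2 fold change of 2.74, ETV5 of 1.66 and SPRED2 of 0.74, while IER3 had -0.40. The IER3 call (edgeR adjusted p 0.0187) was lost without CR31B replicate 3, DMSO replicate 2, DMSO replicate 4, replicate 2 or replicate 4 (0.0532 to 0.0998). Of 18 tested receptor relatives 9 rose and 2 fell, with a median of 0.27. PDGFRA, DDR2 and ROR1 had 1.19, 1.26 and 1.04, and KIT and EPHB2 had -0.58 and -0.27, the EPHB2 call being lost without replicate 2 (edgeR adjusted p 0.0621).

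Of 12 tested partners of p75 and sortilins 4 rose and 2 fell, with a median of 0.19. TNFRSF19, MAGED1 and LINGO1 had 0.79, 0.36 and 0.32. SORT1, a co-receptor for proneurotrophins, had -0.33. BEX3, an interactor of p75, had -0.14 (adjusted p 0.0255), and -0.057 with 0.338 when GC and length offsets were used (edgeR). The BEX3 call was also lost in 7 of 9 fits that left out a library or a pair. The lists were written with earlier results of these data known and are given as counts.

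**Figure D4:**
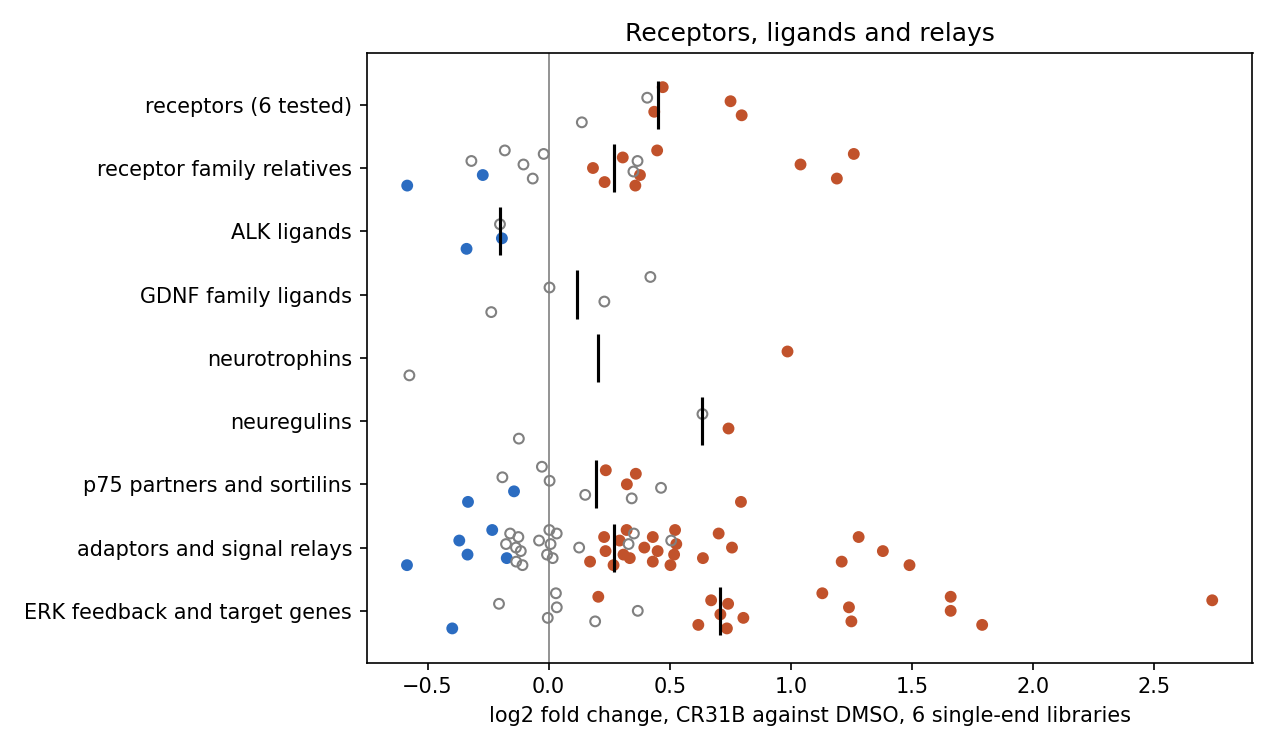
Log2 fold change of CR31B against DMSO in the 6 single-end libraries for each tested gene of the receptors and of the 8 lists; filled points passed an adjusted p of 0.05 (orange higher, blue lower), open points did not, and black bars mark the list medians. The ERK feedback and target genes have a median of 0.71 and the ALK ligands one of -0.20.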

How the data were processed

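Per the labels' protocols, RNA of IMR32 cells (250 ng input, 15 PCR cycles, 75 sequencing cycles) was made into 8 libraries; the labels name a small RNA kit, while protein-coding genes held 98.3 to 98.6% of the counts. The authors deposited raw counts per Ensembl gene; the submitters' processing notes name STAR 2.7.2b and GRCh38, and the counting tool is not given in the sources used here. The name of the deposited table holds the word reverse, with no further statement on strand. Of 58787 identifiers 58515 were in GENCODE release 29. One column header, that of CR31B replicate 4, lacks its first letter, and the remaining letters identified it.

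Tests on the counts used edgeR 4.0.16 under R 4.3.3 (filterByExpr, TMM, quasi-likelihood, two-sided, Benjamini-Hochberg over all tested genes), with layout as a covariate for 8 libraries and none for the 6 single-end libraries. Fold change SEs are log2 fold change over the root of F. CPM are TMM-normalised; log2 CPM used a prior count of 1. Alternatives included DESeq2 1.42.0 and limma 3.58.1. P-values set the treatment difference against the spread between these libraries. Without the replicate block, that spread includes differences between replicate numbers. Deviations of same-numbered single-end libraries from their group means correlated at 0.206, 0.384 and 0.157 in replicates 2, 3 and 4. Libraries of different numbers were not compared in this way. The main single-end fit and the fits that left out libraries ignore the numbers, and the replicate block was run as an alternative. The smallest mean chi-square per gene between 2 libraries was 7.28, so none was counted as a duplicate (1 is expected for repeat draws). Scripts were tested on simulated data.

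The members and lists were chosen with earlier results of these data known. Named were all members, ligands of at least 1 CPM, up to 3 genes per direction of each other list by p, and the 3 genes most like each member. The planned protein features were not analysed here. Some genes of the lists are not reported here.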

Additional observations from a re-analysis of the deposited data

Results flagged for a closer look

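In 2 of 12 results (6 receptors in 2 groups of 4) 1 library lay far from the others of its labelled group, where chance gives about 1 in 20. The gap over the group's range was 0.906 for NGFR and 0.849 for GFRA2 in the CR31B group, and the distant library was replicate 1 in both (both above Dixon's 95% critical value). For the 26 other genes named by the rule, 15 of 52 such results passed, each time with replicate 1 as the distant library. Most of these genes were named by their p in the single-end libraries, where replicates 2 to 4 lie close, so this count follows in part from that choice.

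The treatment difference of replicate 1 departed from that of the single-end libraries by -0.795 (ALK), -0.728 (GFRA1) and -1.47 (GFRA2) on the log2 scale in the interaction test, and the interaction passed in 23 of the 26 other named genes, beside 42.5% of all tested genes. That count too follows in part from how the genes were named, and replicate 1 has 1 library per group, so its own spread is not measured. These results share the same 2 libraries of replicate 1.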

How the results depend on the processing

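ALK, GFRA1 and GFRA2 kept their direction and their call in all 19 alternatives run on the single-end libraries, with log2 fold changes of 0.34 to 0.50, 0.34 to 0.56 and 0.66 to 0.79. NTRK3 kept its direction in 19 (0.50 to 1.04) and lost its call in 7. These 7 had no replicate block, which was run only with the main settings and with GC and length offsets. RET kept its direction (0.14 to 0.66) and gained a call in 5. Among these were the unfiltered fit (adjusted p 0.000461), the replicate block with GC and length offsets (0.00754) and the fit without replicate 2 (0.0204). Without the filter edgeR also put NTRK3 at 7.23e-20 and GFRA2 at 1.13e-35, from 0.0265 and 7.01e-06 with it. The log2 fold changes hardly moved (RET 0.39 from 0.41), and NGFR was not called (0.474). The reason for the smaller p-values was not tested. With the replicate block 5 of the 6 tested receptors passed, RET being the addition, and 8540 genes. The replicate block changed no other call of a receptor in the single-end comparison, and in the interaction it raised the receptors called from 3 to 5, as did leaving out CR31B replicate 2 (range over left-out libraries 3 to 5).

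With 8 libraries, 20 of 23 alternatives gave 0 genes, and those without replicate 1 or a library of it gave calls. With layout in the fit, a lone replicate 1 library adds nothing to the treatment difference. These fits, also for NRG3 below, therefore nearly repeat the single-end comparison and are not separate results. Over left-out libraries or pairs between 0 and 6920 genes passed, between 0 and 3974 of them higher and between 0 and 2954 lower, with 0 to 4 receptors. The 8-library value of RET (0.14, at most 0.41 over left-out libraries) reversed to -0.096 without CR31B replicate 3, -0.0089 without DMSO replicate 2 and -0.033 without replicate 3. That of NRG3 (at most 0.25) reversed to -0.12 without CR31B replicate 1, DMSO replicate 1 or both and to -0.044 without CR31B replicate 2, and its single-end value (down to -0.34) to 0.048 without replicate 4; the causes were not tested.

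In the single-end libraries the genes called lower moved to 4509 with upper quartile scaling and to 4504 with GC and length offsets and the replicate block. Over left-out libraries or pairs between 3981 and 6727 genes passed, between 2606 and 3949 of them higher and between 1375 and 2809 lower, with 3 to 5 receptors. The fewest genes passed without replicate 4, which leaves 4 libraries. List genes called lower were 20 with upper quartile scaling, where the median of all genes was -0.10. Over left-out libraries list genes called ranged from 34 to 55 higher and 6 to 13 lower. Counts of 10 or fewer per library left GFRA3, ERBB3 and NTRK2 without a test.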
